A study of Mus musculus with 24 samples.

Results

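Neurospheres grown from *Cep135* mutant mouse embryos were compared between 24 h and 12 h of culture. These were 6 of the 24 samples of the series, namely the 12 h and 24 h libraries of mutant embryos 1, 2 and 6, and each 24 h library was paired with the 12 h library of the same embryo. CEP135 is a protein of the centriole, the barrel at the core of the centrosome, and the mutant genotype was Cep135 (-/-). The E14.5 dorsal telencephalon was dissociated, and the cortical neural progenitors, with no drug given, were kept in suspension with EGF and FGF2 until small spheres began to form. Control neurospheres of genotype Cep135 (+/+), from embryos 3, 4 and 5 of the same age and cultured alike for 12 h and 24 h, served only to ask whether a change differed between genotypes. The remaining 12 samples were whole cortices, and of these the cortices of the mutant embryos are quoted as the state before culture. Those of the control embryos are quoted for *Alb* alone. The mutation is present in every cell of the embryo and not in the progenitors alone.

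Neural progenitors of the dorsal telencephalon are radial glia, which divide at the ventricle and produce neurons first and glia later. Freed from the tissue and fed with EGF and FGF2, such cells divide as floating spheres, and FGF2 is known to induce *Olig2* in cultured cortical progenitors. Where centrioles are missing, mitosis takes longer and the p53 protein can switch on its targets, among them *Cdkn1a*, which encodes the cell cycle inhibitor p21.

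RNA was counted from the 3′ end of transcripts. The unit throughout is the normalized read count, the number of reads on a gene divided by 1 size factor of the library, and 1 read was worth 0.717 to 1.05 of these units in the 6 libraries. The libraries held 7903426 to 11645213 reads on genes. Transcripts of *Gm42418*, a gene with ribosomal RNA sequence, took 18.95%, 25.55% and 32.65% of the 12 h libraries of embryos 1, 2 and 6 and 23.05%, 20.52% and 20.76% at 24 h. The labels call the cells cortical neural progenitors, and all 15 radial glia markers passed the filter on low values, with *Vim* at 5506 to 7007 at 12 h. All 20 markers of postmitotic neurons passed it too. Their summed level was 51423 to 61346 at 12 h, and that of the radial glia markers 19258 to 22268. Of 8 choroid plexus markers 6 passed it, with a summed level of 4918 to 16434 at 12 h. Of 12 microglia markers only *Lyz2* passed it, with its highest value, 103, in embryo 2 at 24 h. Each library is a mixture, so fewer cells of a type and less RNA per cell cannot be told apart.

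Between 12 h and 24 h 28 of 13374 tested genes changed in mutant neurospheres (limma, embryo as a block, adjusted p under 0.05), which is 0.209% of the genes. Of these, 19 rose (0.142%) and 9 fell (0.0673%). Among the genes that rose *Olig1* and *Olig2*, transcription factors of the oligodendrocyte lineage and of glial progenitors, had the smallest p, followed by *Akap12* and *Ptn*. By size the largest fitted rises were, in order, those of *Mmp3*, *Ager*, *Olig1*, *Bcan* and *Tnc*. *Bcan* and *Tnc* encode extracellular matrix proteins of glial progenitors. The genes that fell were 3 beta-type globins, 2 linker histones, *Top2a* and *Spc24* of the dividing cell, *Lars2* and *Gm26917*. At an unadjusted p under 0.05 there were 1040 genes (7.78%). Without the embryo block 1 gene, *Olig1*, remained past the threshold. With edgeR on whole reads the calls of 7 of the 28 were lost, namely *Ager*, *Cdkn1a*, *Gm26917*, *Hist1h1b*, *Lars2*, *Pdzrn4* and *Slc12a2*.

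All 28 genes moved the same way in each of the 3 embryos, as did 28.5% of all genes tested. In 23 of them the 3 libraries at 24 h did not overlap with the 3 at 12 h, 18 of them higher (5.63% of all genes were separated so) and 5 lower (5.03%). The exceptions, whose groups overlapped, were *Mfge8* among the genes that rose and *Hbb-bs*, *Hbb-y*, *Lars2* and *Gm26917* among those that fell. Because the 28 genes were picked by a paired test on these same libraries, their agreement and separation are not independent support. Across the 13374 genes the changes of any 2 embryos had a Pearson correlation of 0.046 to 0.051, a description over genes that share the libraries.

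**Figure D1:**
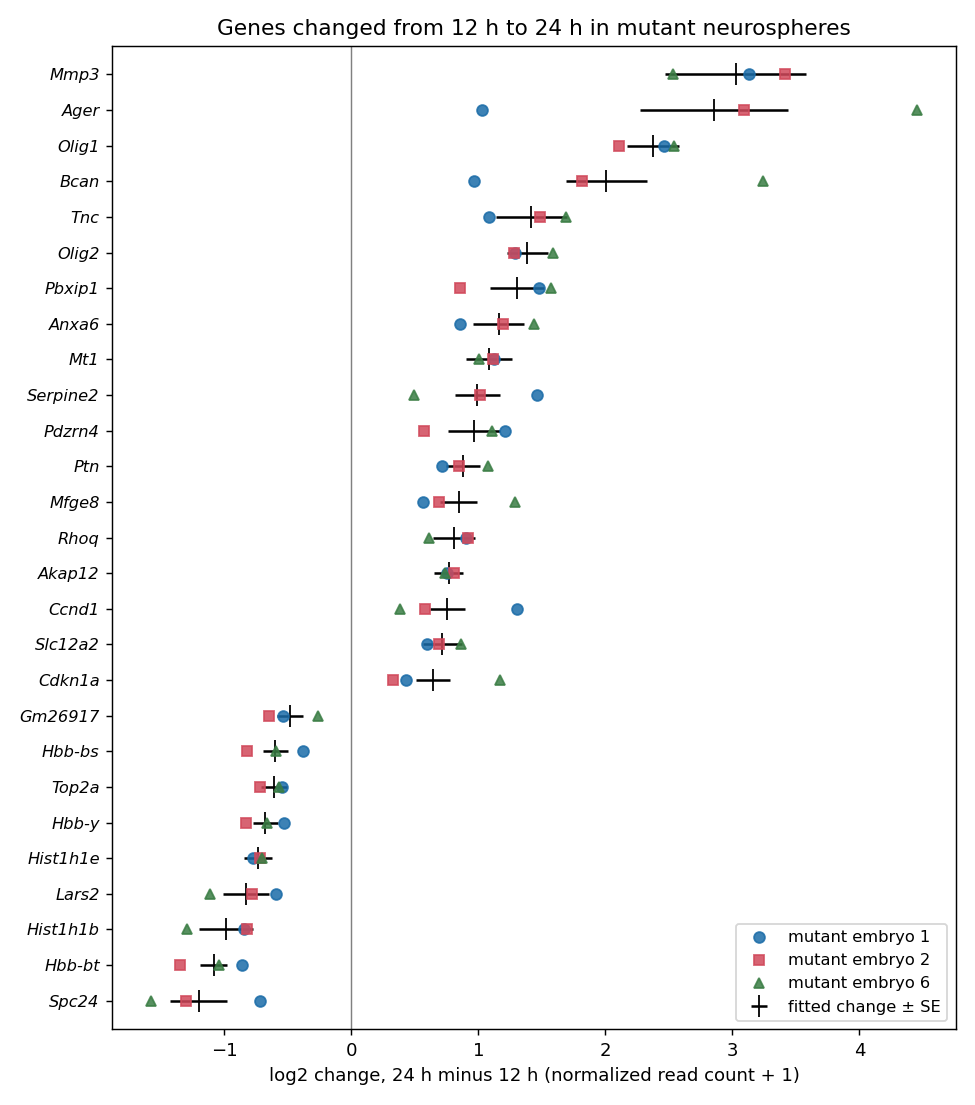
Change from 12 h to 24 h of 27 of the 28 genes past the threshold, on the log2 scale of the normalized read count + 1 (x axis), for each mutant embryo (points) and as fitted with its standard error (black). Each gene has its 3 points on 1 side of 0, from *Mmp3* at 3.03 to *Spc24* at -1.20, and the embryos lie far apart for *Ager*, from 1.03 to 4.46.

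*Olig1* had the smallest adjusted p. Its normalized read count was 105, 113 and 100 at 12 h in embryos 1, 2 and 6, and 585, 490 and 590 at 24 h. Every library at 24 h lay far above every library at 12 h. The log2 fold change was 2.37 ± 0.20 (SE, n = 3 embryos; limma adjusted p = 3.63e-08), a fold of 5.18. In the cortices of the same embryos before culture the value was 14.7, 32.0 and 20.4, below all 6 cultures.

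*Olig2*, its neighbor on chromosome 16, had 212, 394 and 245 at 12 h and 519, 959 and 738 at 24 h. The groups did not overlap, and the value rose in each embryo, most in embryo 6. The log2 fold change was 1.39 ± 0.16 (SE, n = 3 embryos; limma adjusted p = 1.53e-05). *Olig1* lies at chr16:91269772-91271933 on the plus strand and *Olig2* at chr16:91225457-91228677 on the same strand (GRCm38, GENCODE vM21). Of the 8 oligodendrocyte lineage markers 5 passed the filter, 2 rose and none fell, with a median log2 fold change of 1.90 beside 0.0161 over all genes tested. *Egfr*, the receptor for EGF, had 35.1, 64.2 and 8.96 at 12 h and 78.1, 115 and 130 at 24 h, groups that did not overlap, with an adjusted p of 0.113. Markers of committed oligodendrocyte precursors were low. *Sox10* was at 0 in 5 of the 6 libraries, and *Pdgfra* reached at most 19.2. *Cspg4*, the NG2 proteoglycan of the same cells, had 8.77, 8.42 and 0 at 12 h and 15.0, 21.3 and 15.7 at 24 h, without overlap (adjusted p = 0.705).

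Matrix and secreted factors formed the next group. *Bcan*, the proteoglycan brevican, had 136, 63.1 and 28.7 at 12 h and 266, 225 and 280 at 24 h. The embryos differed at 12 h and were close to each other at 24 h. Its log2 fold change was 2.01 ± 0.32 (SE, n = 3 embryos; limma adjusted p = 0.00107). *Tnc*, tenascin C, had 94.6, 80.0 and 48.4 at 12 h and 201, 226 and 158 at 24 h. Here too the groups did not overlap, and the log2 fold change was 1.42 ± 0.28 (limma adjusted p = 0.0129). Without embryo 2 it was 1.385 and not past the threshold.

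*Mmp3*, a secreted protease of matrix, had the largest fitted change of the 28, 3.03 ± 0.56 on the log2 scale (limma adjusted p = 0.00597). Its normalized read count was 10.7, 4.21 and 17.9 at 12 h and 102, 54.7 and 108 at 24 h, from low numbers of reads to moderate ones. In the cortices of the 3 embryos it was 0, 2.21 and 0. *Ptn*, the growth factor pleiotrophin, rose by 0.88 ± 0.13, from 843, 850 and 570 to 1388, 1529 and 1205. *Serpine2*, an inhibitor of serine proteases, rose by 0.99 ± 0.18, and *Mfge8*, a secreted glycoprotein that binds phosphatidylserine on dying cells, by 0.85 ± 0.15, with a range of 316 to 1308 at 12 h that overlapped with 774 to 2106 at 24 h. Without embryo 1 the change of *Mmp3* was 2.97 and that of *Serpine2* 0.76, and neither was past the threshold. In 1 fit of all 12 neurosphere libraries, which share 1 estimate of the spread, the calls of *Mmp3* (adjusted p = 0.162) and *Mfge8* (adjusted p = 0.259) were lost.

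Among membrane and signaling proteins, *Akap12*, a scaffold for kinases, rose by 0.77 ± 0.11 on the log2 scale and *Anxa6*, an annexin that binds membranes, by 1.16 ± 0.20. *Akap12* was even among embryos, with changes of 0.76, 0.80 and 0.74. *Pbxip1*, a protein that binds PBX factors, rose by 1.30 ± 0.21, and *Rhoq*, a small GTPase, by 0.81 ± 0.16. *Pdzrn4* rose by 0.96 ± 0.20 and *Slc12a2*, a chloride cotransporter, by 0.72 ± 0.15. *Serpine2*, *Rhoq*, *Pdzrn4* and *Slc12a2* were named after their values were seen, because they also passed the threshold. Without embryo 1 *Pdzrn4* (0.84), *Rhoq* (0.76) and *Slc12a2* (0.78) were not past the threshold, and without embryo 2 *Rhoq* (0.76) and *Slc12a2* (0.73) were not. *Slc12a2* was also not past it in the fit of all 12 libraries (adjusted p = 0.0593).

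*Ager*, the receptor for advanced glycation end products, was scattered. It had 27.3, 23.1 and 1.79 at 12 h and 56.6, 204 and 60.2 at 24 h, and the value of 1.79 stands for 2 reads. The groups did not overlap, and the log2 fold change was 2.86 ± 0.58 (limma adjusted p = 0.0219), but with edgeR on whole reads, with a pseudocount of 0.1 and without embryo 2 (2.74) the gene was not past the threshold.

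**Figure D2:**
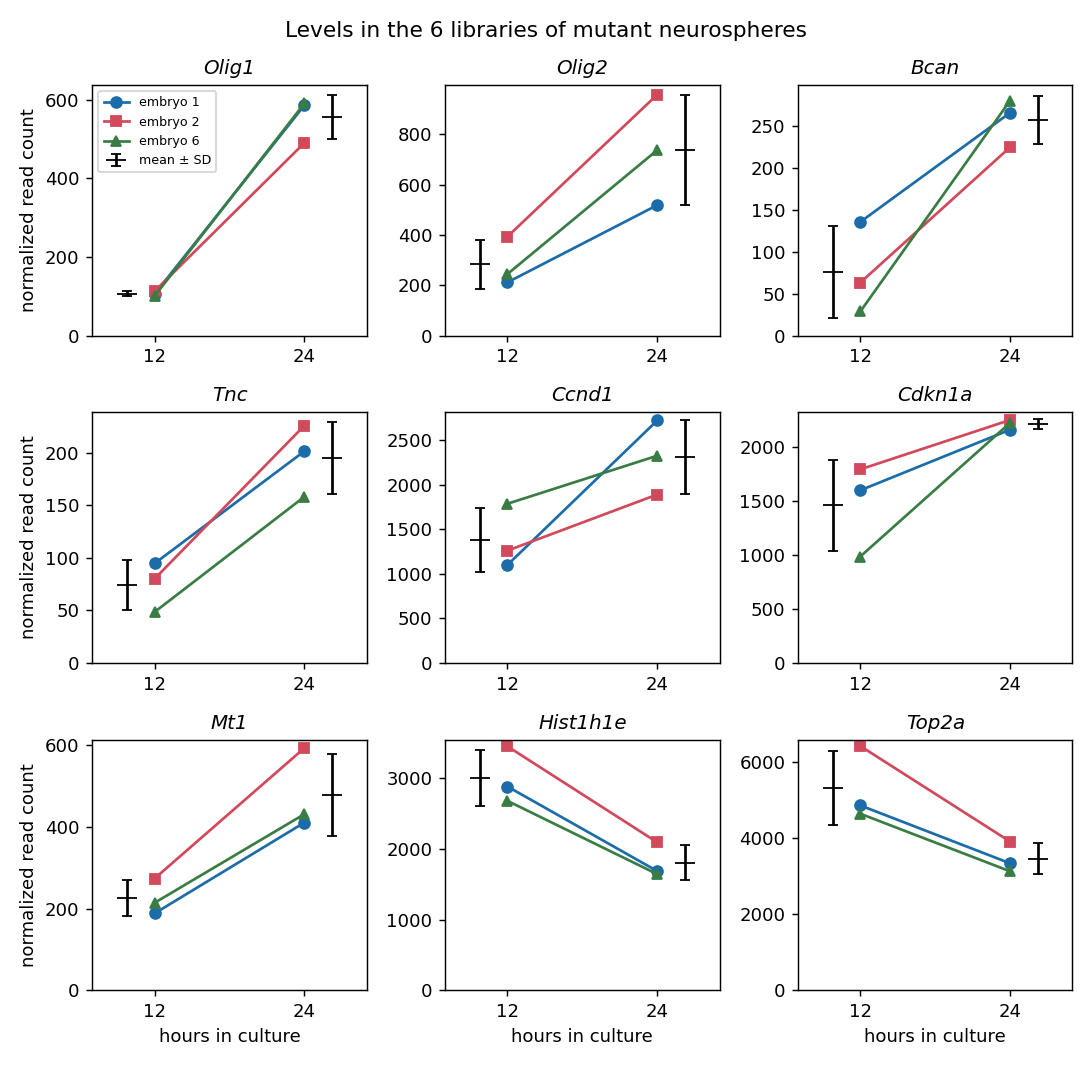
Normalized read count (y axis, from 0) at 12 h and 24 h of culture (x axis) of 9 genes in mutant neurospheres, with 1 line per embryo and the mean ± SD of the 3 libraries beside it. *Olig1* goes from 100 to 113 at 12 h to 490 to 590 at 24 h, *Cdkn1a* spreads from 984 to 1791 at 12 h and from 2158 to 2248 at 24 h, and *Hist1h1e* and *Top2a* are lower at 24 h in all 3 embryos.

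*Cdkn1a* rose. Its normalized read count was 1597, 1791 and 984 at 12 h and 2158, 2248 and 2222 at 24 h. The groups did not overlap: the embryos were spread at 12 h and close together at 24 h, and embryo 6, the lowest at 12 h, moved most (1.17 on the log2 scale, against 0.43 and 0.33). The log2 fold change was 0.65 ± 0.13 (SE, n = 3 embryos; limma adjusted p = 0.0283). Without embryo 6 it was 0.38 and not past the threshold, and neither was it past the threshold with edgeR or in the fit of all 12 libraries (adjusted p = 0.205). In the cortices of the same embryos the value was 550, 634 and 443.

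No other p53 target on the list passed the threshold. Of 24 genes on the list 23 were tested, 1 (*Cdkn1a*) rose and none fell, with a median log2 fold change of 0.20, or 0.0592 without embryo 6. *Zmat3*, an RNA-binding target of p53, had 694, 767 and 528 at 12 h and 973, 798 and 829 at 24 h (adjusted p = 0.491). *Tigar*, which lowers glycolysis, had a fitted change of -0.86 (adjusted p = 0.491), with -0.22 and -0.18 in embryos 1 and 2 and -2.17 in embryo 6. Of 15 genes of the Bcl2 family, which govern apoptosis, 13 were tested and 0 passed the threshold, with a median of 0.21.

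*Ccnd1*, cyclin D1, which drives entry into the cell cycle and responds to growth factors, had 1099, 1260 and 1785 at 12 h and 2719, 1889 and 2324 at 24 h. The groups did not overlap, although embryo 6 at 12 h came close to embryo 2 at 24 h. The log2 fold change was 0.76 ± 0.14 (SE, n = 3 embryos; limma adjusted p = 0.00516). Without embryo 1 it was 0.48 and not past the threshold. *Ccnd1* was the 1 gene that rose of 15 tested in the list of EGF and FGF feedback genes, whose median was 0.23, and none fell. *Etv4*, a transcription factor induced by FGF, had a fitted change of 0.61 (adjusted p = 0.518). *Egr1*, an immediate early gene, had a fitted change of -0.62 and lay just outside the threshold (adjusted p = 0.0544), with values of 932 to 1088 at 12 h and 624 to 683 at 24 h.

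Genes of cell division and linker histones were among those that fell. *Top2a*, the topoisomerase that untangles DNA before cell division, fell from 4868, 6432 and 4649 to 3343, 3916 and 3133. The groups did not overlap, and the log2 fold change was -0.61 ± 0.10 (SE, n = 3 embryos; limma adjusted p = 0.00198). *Spc24*, a subunit of the kinetochore complex that grips spindle microtubules, fell from 226, 288 and 451 to 137, 116 and 150, a log2 fold change of -1.20 ± 0.23 (limma adjusted p = 0.00794). The call of *Top2a* was lost without embryo 2 (-0.56) and in the fit of all 12 libraries (adjusted p = 0.0552), and that of *Spc24* without embryo 6 (-1.01). Of 25 mitotic genes tested 1 (*Top2a*) fell and none rose, 23 had fitted changes below 0, beside 47.7% of all genes tested, and their median was -0.315. *Nusap1* and *Kif11*, both of the mitotic spindle, lay just outside the threshold, with fitted changes of -0.66 (adjusted p = 0.0502) and -0.80 (adjusted p = 0.0739) and groups that did not overlap.

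Of 26 genes for DNA replication and licensing in S phase 0 passed the threshold. Fitted changes above 0 were found for 15, beside 6999 of all 13374 genes tested, and the median was 0.0386. *Uhrf1*, which maintains DNA methylation at replication, had 247, 271 and 285 at 12 h and 404, 386 and 440 at 24 h (adjusted p = 0.272). The centriole and microcephaly genes, the family that holds *Cep135*, had 0 of 17 past the threshold and a median of -0.0626. *Cep135* itself had 260, 213 and 262 at 12 h and 193, 265 and 295 at 24 h, values that overlapped (log2 fold change 0.02 ± 0.21, adjusted p = 0.988). Its reads come from the 3′ end of the transcript, outside the mutated exon, and so do not check the genotype.

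*Hist1h1e* and *Hist1h1b* encode linker histones, which bind the DNA between nucleosomes. The libraries were primed with oligo(dT), so values of histone genes stand for transcripts that this primer reached. They do not measure all histone RNA. *Hist1h1e* fell from 2881, 3449 and 2678 to 1685, 2092 and 1642, and the 3 embryos moved alike, by -0.77, -0.72 and -0.71. The log2 fold change was -0.73 ± 0.11 (SE, n = 3 embryos; limma adjusted p = 0.00058). *Hist1h1b* fell from 275, 293 and 375 to 153, 165 and 153, a log2 fold change of -0.99 ± 0.21 (limma adjusted p = 0.0354), which was not past the threshold without any 1 of the embryos (-0.83 to -1.07). Neither linker histone was past it in the fit of all 12 libraries, with an adjusted p of 0.0535 for *Hist1h1e* and 0.228 for *Hist1h1b*. In GENCODE *Hist1h1e* overlaps with *Hist1h2be* on the same strand, so reads there could be split between them. The replication-dependent histones, a group chosen after their values were seen, had 38 genes tested, of which 2 fell and none rose, with a median of -0.44. Fitted changes below 0 were found for 26 of them, beside 47.7% of all genes tested.

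The promoters of these genes are shown because linker histones and *Top2a* fell together. Each window runs from 250 bases before the RefSeq start to 30 bases after it (GRCm38.p6, RefSeq), with the table's symbols H1f4 for *Hist1h1e* and H1f5 for *Hist1h1b*, and was searched on both strands. Capitals mark 2 motifs in the histone promoters, the H1 box with the letters AAACACA and the CCAAT box, which reads ATTGG on the other strand. In *Top2a* they mark the CCAAT box and the cell cycle homology region, searched as TTTGAA and also as TTTAAA, where the first of these reads TTCAAA on the other strand. The promoters lie at chr13:23622529-23622808 (*Hist1h1e*, minus strand), chr13:21780596-21780875 (*Hist1h1b*, minus strand) and chr11:99024160-99024439 (*Top2a*, minus strand).
Hist1h1e: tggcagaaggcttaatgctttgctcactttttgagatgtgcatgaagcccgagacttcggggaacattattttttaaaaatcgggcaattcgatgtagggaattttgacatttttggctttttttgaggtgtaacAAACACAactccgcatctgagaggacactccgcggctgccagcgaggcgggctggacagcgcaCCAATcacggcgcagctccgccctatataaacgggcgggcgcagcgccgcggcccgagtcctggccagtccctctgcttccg
Hist1h1b: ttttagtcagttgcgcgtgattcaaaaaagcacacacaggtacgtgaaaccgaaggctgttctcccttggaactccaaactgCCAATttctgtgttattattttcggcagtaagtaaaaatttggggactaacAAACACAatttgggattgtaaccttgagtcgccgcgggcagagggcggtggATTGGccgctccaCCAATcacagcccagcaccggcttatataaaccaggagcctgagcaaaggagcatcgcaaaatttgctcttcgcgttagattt
Top2a: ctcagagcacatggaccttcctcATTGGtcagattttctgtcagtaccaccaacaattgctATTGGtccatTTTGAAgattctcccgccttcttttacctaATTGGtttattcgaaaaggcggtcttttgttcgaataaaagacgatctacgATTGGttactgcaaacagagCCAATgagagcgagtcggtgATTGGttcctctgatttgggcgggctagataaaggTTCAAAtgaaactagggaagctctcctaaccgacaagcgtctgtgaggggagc

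The H1 box was present 1 time in each histone promoter, starting at position -115 in *Hist1h1e* and -117 in *Hist1h1b*, and in 6.8% of 32851 promoter windows of the same length. The CCAAT box was found 1 time in *Hist1h1e*, 3 times in *Hist1h1b* and 6 times in *Top2a*, and was present in 36.1% of windows. The cell cycle homology region was found 2 times in *Top2a* and was present in 26.7%. A match is a stretch of letters and was not tested for binding.

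Metals and stress had 1 member past the threshold. *Mt1*, a metallothionein that binds zinc and copper, rose from 188, 274 and 214 to 411, 593 and 431. The groups did not overlap, the embryos changed by 1.12, 1.11 and 1.01, and the log2 fold change was 1.08 ± 0.18 (SE, n = 3 embryos; limma adjusted p = 0.00198). *Mt2*, its close relative, had 102, 130 and 143 at 12 h and 109, 140 and 120 at 24 h, with a fitted change of -0.02 (adjusted p = 0.992). The promoter of *Mt1* (chr8:94178839-94179118, plus strand, same window and source) is shown with the core of the metal response element, searched as TGCGCNC and also as TGCACNC, in capitals.
Mt1: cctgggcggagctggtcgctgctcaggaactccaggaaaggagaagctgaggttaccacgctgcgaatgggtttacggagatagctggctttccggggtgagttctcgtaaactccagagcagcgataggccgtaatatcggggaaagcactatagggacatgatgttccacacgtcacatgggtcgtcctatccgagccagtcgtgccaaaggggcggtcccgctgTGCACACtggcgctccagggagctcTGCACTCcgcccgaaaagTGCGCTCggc

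It was found 3 times, starting at position -23 before the RefSeq start and at 3 and 21 after it, and in 24.1% of all windows. Of the lists for other stresses, the heat shock genes (12 tested), the integrated stress response (19), the endoplasmic reticulum chaperones (14) and the NRF2 antioxidant genes (10) each had 0 past the threshold, with medians of 0.0756, -0.0779, 0.0471 and 0.12. *Bag3*, a cochaperone of the heat shock list, had 62.4, 82.1 and 42.1 at 12 h and 128, 148 and 127 at 24 h (adjusted p = 0.21). *Hmox1*, heme oxygenase, had 8.77, 4.21 and 2.69 at 12 h and 29.4, 44.5 and 31.4 at 24 h, groups that did not overlap (adjusted p = 0.363).

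Markers of the cell types of the cortex had 1 gene past the threshold outside the oligodendrocyte lineage. Of 15 radial glia markers 1 (*Tnc*) rose and none fell, with a median of -0.0356. *Fabp7*, a lipid carrier of radial glia, lay just outside the threshold with a fitted change of 0.90 (adjusted p = 0.0513), and *Vim* had a fitted change of 0.40 (adjusted p = 0.101) with groups that did not overlap. *Pax6* and *Sox2*, transcription factors of the same cells, had fitted changes of -0.49 and -0.26 (adjusted p = 0.575 and 0.619). Of 9 intermediate progenitor markers tested 0 passed, with a median of -0.19, and *Neurog2*, which drives neurogenesis, had 336, 251 and 452 at 12 h and 211, 169 and 213 at 24 h (adjusted p = 0.156).

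Of 20 markers of postmitotic neurons 0 passed the threshold for a change, with a median of -0.0212. *Fezf2*, a factor of deep layer neurons, had 1162, 784 and 810 at 12 h and 744, 554 and 523 at 24 h, groups that did not overlap (adjusted p = 0.0852), and *Neurod6* had a fitted change of -0.48 (adjusted p = 0.159). Markers of the ventral telencephalon, where interneurons are born, had 0 of 11 past the threshold and a median of -0.24. Of 6 astrocyte lineage markers tested 0 passed, with a median of 0.40. *Sparcl1* had 98.5, 82.1 and 101 at 12 h and 132, 270 and 211 at 24 h (adjusted p = 0.156), while *Gfap* was at 0 in 5 of the 6 libraries.

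**Figure D3:**
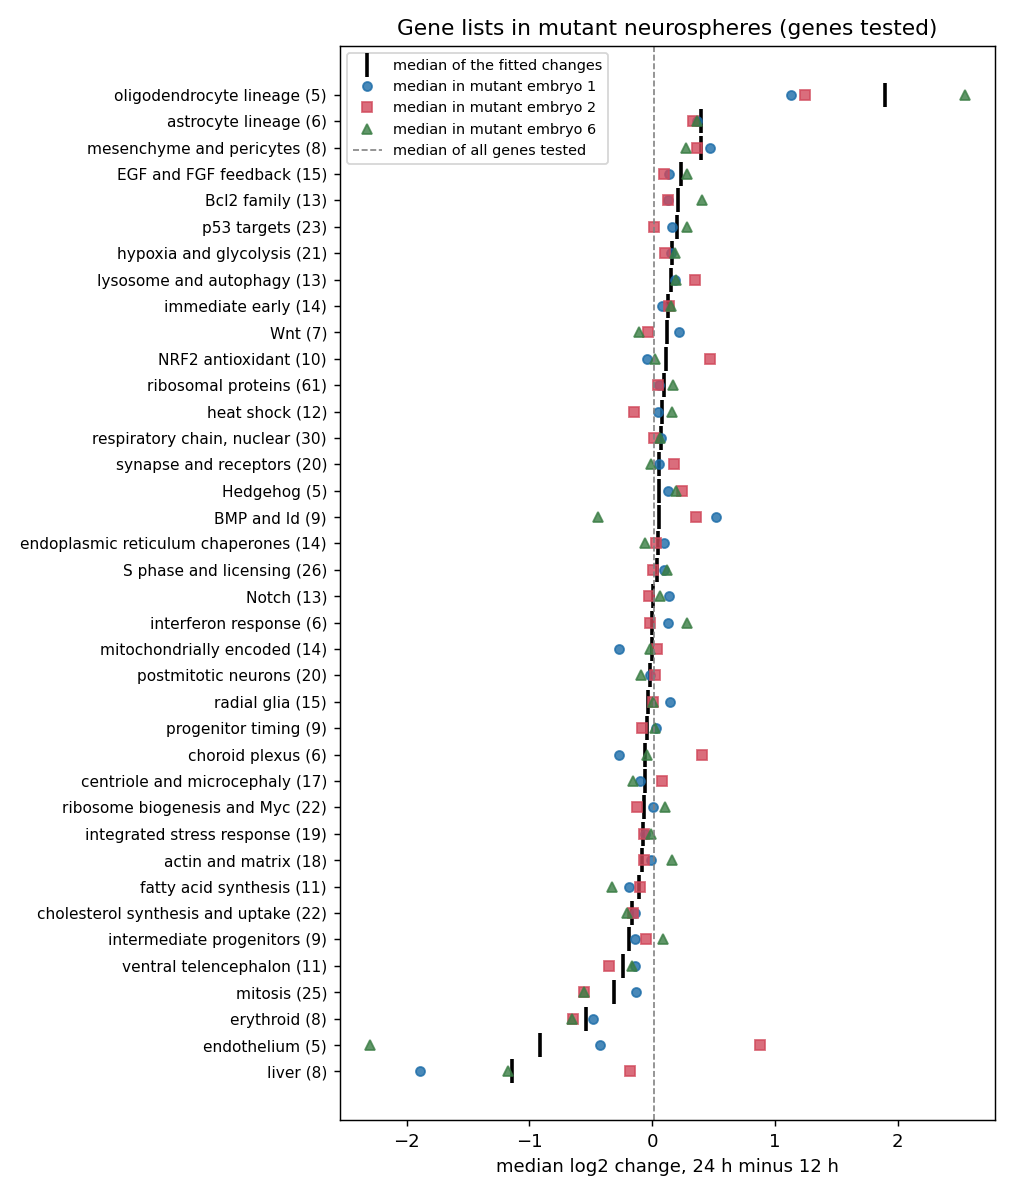
Median log2 change from 12 h to 24 h (x axis) of each gene list with at least 5 genes tested (rows, number tested in brackets), as fitted (black) and in each mutant embryo (points), with the median of all genes, 0.0161, as a dashed line. The oligodendrocyte lineage lies at 1.90 and the erythroid and mitosis lists at -0.536 and -0.315, and the lists below these are liver at -1.14 and endothelium, with 5 genes tested, at -0.916.

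The other pathway lists had no gene past the threshold. Over all genes tested 6999 of 13374 fitted changes were above 0 and 47.7% below. Cholesterol synthesis and uptake had 18 of 22 fitted changes below 0 (11 of 22 in controls) and a median of -0.16, with *Hsd17b7* at -0.58 (adjusted p = 0.348). In the lysosome and autophagy list 11 of 13 fitted changes were above 0 (median 0.15, also 11 of 13 in controls), with *Ctsd*, a lysosomal protease, at 0.57 (adjusted p = 0.17). Ribosomal proteins had 48 of 61 above 0 (median 0.0953, 54 of 61 in controls), and hypoxia and glycolysis 15 of 21 (median 0.16, 12 of 20 in controls). In the Notch list, 13 genes tested with a median of 0.0079, the target *Hes5* had 71.2, 57.9 and 65.4 at 12 h and 117, 142 and 139 at 24 h (adjusted p = 0.304) and the ligand *Dll1* had a fitted change of -0.72 (adjusted p = 0.49).

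Globin transcripts fell. *Hbb-bt*, an adult beta globin, went from 7216, 11100 and 12511 to 3975, 4354 and 6075, without overlap, a log2 fold change of -1.08 ± 0.10 (SE, n = 3 embryos; limma adjusted p = 2.24e-07). *Hbb-y*, an embryonic beta globin, fell by 0.68 ± 0.10 on the log2 scale and *Hbb-bs*, the other adult one, by 0.60 ± 0.10, each in all 3 embryos but with overlapping groups, and *Hbb-bs* was not past the threshold without embryo 2 (-0.49) or in the fit of all 12 libraries (adjusted p = 0.0535). Of 8 erythroid markers tested 3 fell and none rose, all 8 had fitted changes below 0 (47.7% of all genes tested), and the median was -0.536. The summed level of the 9 erythroid genes was 69448, 93971 and 108625 at 12 h and 50494, 54717 and 79430 at 24 h. The globin genes resemble each other in sequence, and reads could be split among them.

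Liver transcripts were present too. Summed over 11 liver genes, the level was 500.2, 204 and 936 at 12 h and 115, 179 and 411 at 24 h in the mutant cultures. In the control cultures of embryos 3, 4 and 5 it was 1.57, 1422 and 1032 at 12 h and 1.69 to 6.83 at 24 h. Of 8 liver genes tested in mutants 0 passed the threshold and all 8 had fitted changes below 0 (47.7% of all genes tested), with a median of -1.14. *Alb*, the serum albumin, had 107, 57.9 and 206 at 12 h and 27.2, 36.4 and 59.4 at 24 h (adjusted p = 0.156). It was at 0 in the cortices of the 3 mutant embryos, and at 0, 319 and 289 in those of control embryos 3, 4 and 5. *Gm26917*, adjacent to *Gm42418* on chromosome 17, fell from 8676, 11423 and 6891 to 5975, 7307 and 5752 (log2 fold change -0.48 ± 0.10, limma adjusted p = 0.0283), and *Lars2*, a mitochondrial leucyl-tRNA synthetase, from 281, 449 and 682 to 186, 261 and 315 (-0.83 ± 0.18, limma adjusted p = 0.049). *Gm26917* was not past the threshold without embryo 1 (-0.45) or embryo 2 (-0.40), nor *Lars2* without embryo 2 (-0.85) or embryo 6 (-0.69). In the fit of all 12 libraries the adjusted p was 0.33 for *Gm26917* and 0.162 for *Lars2*. The call of *Lars2* was also lost when the libraries were rescaled by their median of ratios or by a total that left out *Gm42418* and mitochondrial genes. *Lars2* had the embryo order of *Gm42418* in the mutant libraries at 12 h (18.95%, 25.55% and 32.65% of the library). At 24 h the order differed (23.05%, 20.52% and 20.76%). In the control cultures the order was the same at both times. Whether reads on *Lars2* or *Gm26917* came from ribosomal RNA was not tested. What part blood, liver and *Gm42418* RNA had in the other changes was not tested.

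**Figure D4:**
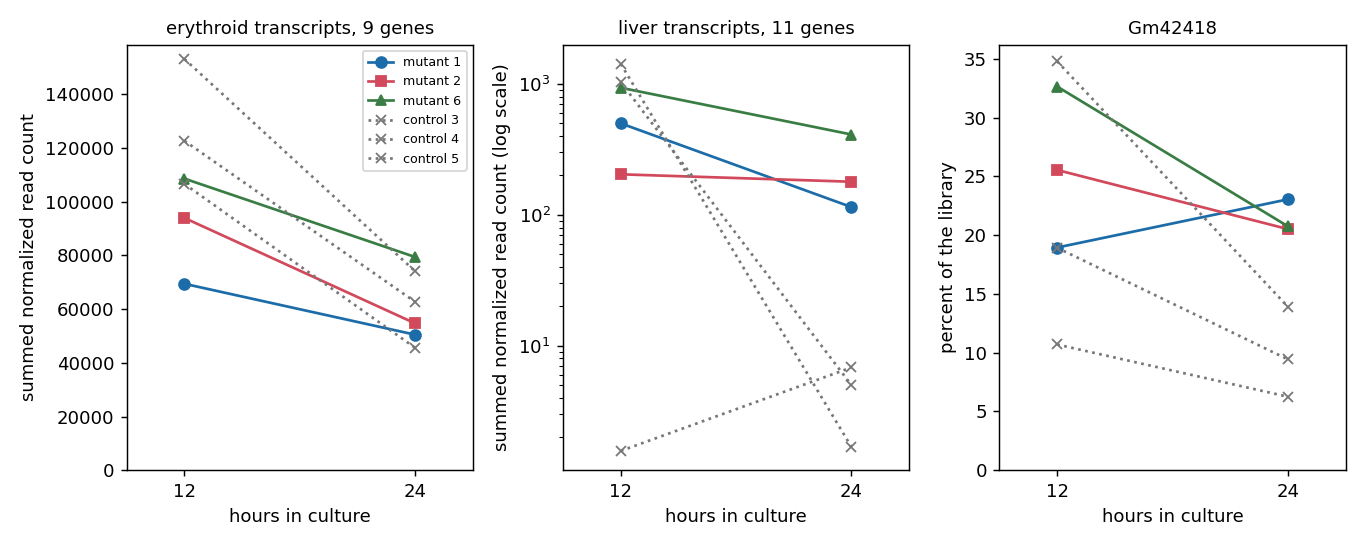
Summed normalized read count of the 9 erythroid genes (left) and the 11 liver genes (middle, log scale), and percent of the library on *Gm42418* (right), at 12 h and 24 h of culture (x axis), with 1 line per embryo (mutant colored, control grey). Erythroid transcripts are lower at 24 h in all 3 mutant embryos, the liver sum of embryo 2 is close at both times (204 and 179), and *Gm42418* goes up in embryo 1 and down in embryos 2 and 6.

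The same 12 hours in controls gave 37 of 13294 genes past the threshold (0.278%), 15 higher and 22 lower, and 7.61% at an unadjusted p under 0.05. Mutant and control embryos share no sample. Of the 28 mutant genes 15 were past the threshold in controls as well, which is 53.6% of the mutant genes and 40.5% of the control genes, and all 28 had control estimates in the same direction. *Olig1* went from 113, 129 and 137 to 452, 527 and 491 in controls (1.95 ± 0.19), *Mt1* changed by 1.22 ± 0.20 and *Hist1h1e* by -1.12 ± 0.16. *Cdkn1a* had 950.1, 798 and 695 at 12 h and 1050.0, 1348 and 920.1 at 24 h in controls, below all mutant libraries of the same time.

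The test of the difference between the genotypes' changes, the time by genotype interaction in limma, passed for 0 of 13359 genes, with 468 (3.5%) at an unadjusted p under 0.05, and DESeq2 on whole reads gave 0 and edgeR 2. Those 2 were the liver genes *Alb* and *Serpina1e*, whose control reads at 12 h came from embryos 4 and 5, with 296 and 379 for *Alb* beside 1.57 in embryo 3. The standard error of the difference was 0.16 to 1.01 on the log2 scale for the 28 genes, with a median of 0.255, which sets the precision that 3 embryos per genotype gave. The difference for *Cdkn1a* was 0.21 ± 0.22 (mutant minus control), and it was -0.05 without embryo 6. The 28 genes were picked by their change in these same mutant libraries, which favors a larger fitted change in mutants. A count among them therefore cannot be set beside the 3.5% of all genes. Of the 28 genes 9 had an unadjusted p under 0.05 for the difference. Among them the fitted rise was larger in mutants for *Ager* (2.63 ± 0.78), *Bcan* (1.27 ± 0.43), *Pbxip1* (0.80 ± 0.30) and *Slc12a2* (0.50 ± 0.21). The fitted fall was smaller in mutants for *Hbb-y* (difference 0.64 ± 0.18), *Hbb-bt* (0.47 ± 0.16), *Hbb-bs* (0.36 ± 0.17) and *Gm26917* (0.63 ± 0.19), and *Mmp3* was listed at 0 in the 3 control libraries at 12 h and at 30.0 to 65.7 at 24 h. None of these differences passed the adjusted threshold.

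The 5 genes with the smallest p for the difference were *Hba-x* (0.93 ± 0.23), an embryonic alpha globin, *Mob1a* (-1.27 ± 0.33), *Tuba1b* (-0.63 ± 0.17), *Fezf2* (-0.73 ± 0.20) and *Bsn* (-1.32 ± 0.36), each with an adjusted p of 1. *Fezf2* stayed at 795 to 1092 at 12 h and 1028 to 1114 at 24 h in controls. The mitosis list had a median of -0.302 in controls beside -0.315 in mutants, and the S phase list -0.37 beside 0.0386, with 5 of its genes at an unadjusted p under 0.05 for the difference and 0 past the threshold.

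**Figure D5:**
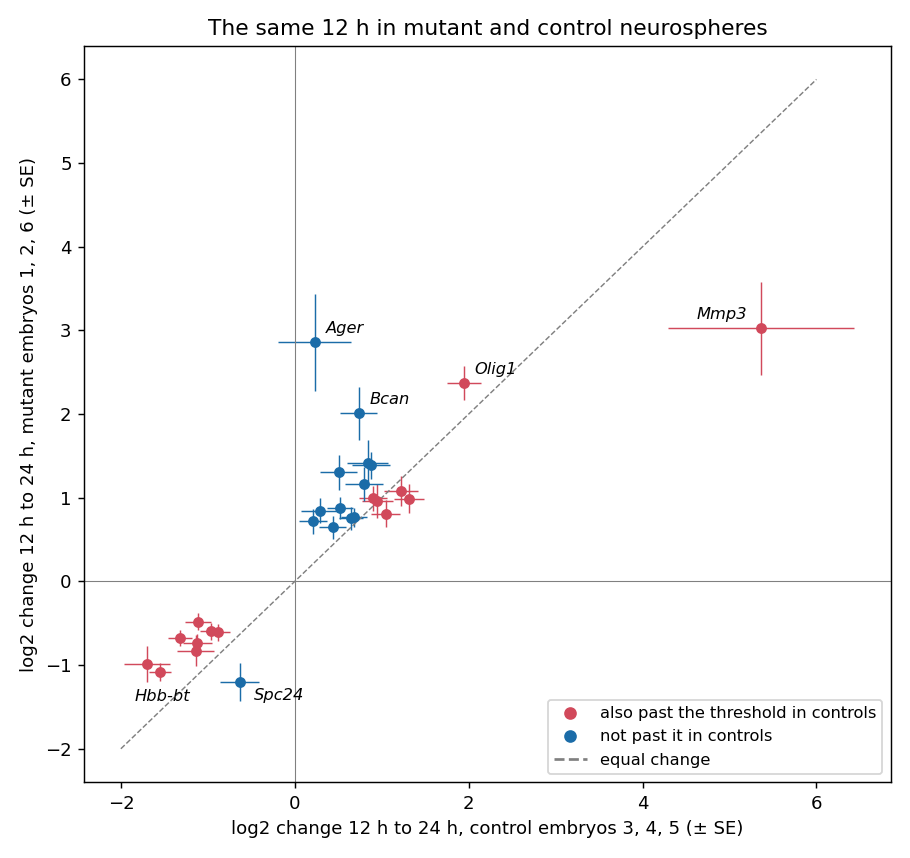
Log2 change from 12 h to 24 h of the 28 genes in mutant (y axis) and control (x axis) neurospheres, each with its standard error, and the line of equal change (dashed). All points lie in the upper right or lower left, on the same side of 0 on both axes, 15 of them also past the threshold in controls (red); the control value of *Mmp3* depends on the pseudocount, because its 3 control libraries at 12 h were at 0.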

How the data were processed

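The deposited table held signal values: the authors counted reads per gene (QuantSeq 3′ libraries, stranded; TopHat2 2.0.10 on GRCm38, HTSeq 0.6.1, GENCODE genes) and divided the counts of each library by 1 size factor. All values above 0 in the neurosphere libraries were whole multiples of 1 read (100%, tolerance 0.001), which gave whole reads for edgeR and DESeq2. Every per-sample column belonged to a sample of the series.

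Changes were tested with limma 3.58.1 (R 4.3.3) on log2-transformed values after adding a pseudocount of 1, with a variance trend, the embryo as a block, a mean of 10 or more per gene, Benjamini-Hochberg adjustment over all genes and a threshold of 0.05. Fold changes are on this scale and understate changes of low genes. edgeR 4.0.16 and DESeq2 1.42.0 were alternatives. The 12 h and 24 h libraries of an embryo come from the same animal per the labels. Their deviations from the group mean had correlations of 0.085, 0.159 and 0.153 in mutant embryos 1, 2 and 6, each highest with its own number, and of -0.044, 0.179 and 0.163 in control embryos 3, 4 and 5, of which 3 and 5 correlated better with another embryo. The genes named are *Cep135* and *Cdkn1a*, the 10 genes in each direction with the smallest p and the 5 with the largest change among genes past the threshold that moved alike in 3 embryos, up to 3 genes per list with the smallest p, and the 5 smallest p of the interaction. Further list members quoted (*Sox10*, *Pdgfra*, *Cspg4*, *Mt2*, *Pax6*, *Sox2*, *Gfap*) were picked with their values in view. 1 gene past the threshold, counted in the totals, is not reported here. Both the comparison and the 40 gene lists were chosen with earlier results of these data known. Gene positions are from GENCODE vM21. Promoters were matched in the RefSeq table for *Hist1h1e*, *Hist1h1b*, *Top2a* and *Mt1*, 4 genes, and not for *Olig1* and *Spc24*.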

Additional observations from a re-analysis of the deposited data

Results flagged for a closer look

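Among 99 named genes, some of them added with these values in view, 6 moved one way in every mutant embryo and the other way in every control embryo. The remaining genes were not searched for this pattern, so 6 is not a count over all genes, of which 28.5% moved one way in all 3 mutant embryos. The difference between the changes (mutant minus control, log2 scale) was 0.88 for *Uhrf1*, 1.23 for *B2m*, -0.68 for *Wnt7b*, 0.35 for *Igf2bp3*, -0.63 for *Tuba1b* and -1.32 for *Bsn*. The test of the difference passed for none of them (limma interaction, adjusted p = 1 for each). Groups of 3 libraries were too small for a rule on outlying samples.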

How the results depend on the processing

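The count of changed genes in mutants was 28. Without the replicate block (no pairing by embryo) it was 1, *Olig1*, without a filter on low values it was 59, which included the 28, and in 1 fit of all 12 neurosphere libraries it was 18, all among the 28, with the calls of *Cdkn1a*, *Gm26917*, *Hbb-bs*, *Hist1h1b*, *Hist1h1e*, *Lars2*, *Mfge8*, *Mmp3*, *Slc12a2* and *Top2a* lost. Leaving out 1 embryo gave 30 to 48, of which 19 to 24 were among the 28, with 48 without embryo 1. Other pseudocounts and filters, 3 rescalings, edgeR, DESeq2 and an adjusted p under 0.1 gave 21 to 39. edgeR and a pseudocount of 0.1 each lost 7, namely *Ager*, *Cdkn1a*, *Gm26917*, *Hist1h1b*, *Lars2*, *Pdzrn4* and *Slc12a2*. *Hist1h1b* was lost without any 1 embryo. No direction of the 28 reversed.

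In controls the count of 37 was 2 without the replicate block, 96 without a filter, and 19 to 266 without 1 embryo, 266 without embryo 3. The interaction had 0, with 2 by edgeR (*Alb*, *Serpina1e*) and 0 to 5 without 1 embryo, 5 without embryo 3 (*Alb*, *Apoa1*, *Apoc1*, *Serpina1e*, *Tuba1c*) and 1 without embryo 5 (*AA474408*). The cause was not tested. Some log2 changes that were not past the threshold turned sign without 1 embryo. The change of *Cep135* was -0.13 without embryo 2, -0.0542 without embryo 6 and 0.25 without embryo 1. In controls *Ager* ranged from -0.0283 without embryo 5 to 0.53 without embryo 3, and *Mfge8* from -0.13 to 0.70 likewise. Without embryo 3 the control change of *Mfge8* was past the threshold (limma adjusted p = 0.00251). The genotype difference for *Cdkn1a* ranged from -0.0532 without embryo 6 to 0.37 without embryo 4. Of 239 recomputed list medians 22 moved by more than the SD of the 3 embryos, all without 1 embryo. The number of embryos and the low reads of *Ager* and *Mmp3* limit these results.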

Other observations

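The remaining lists had 0 genes past the threshold. Over all genes tested 6999 of 13374 fitted changes were above 0. Fitted changes above 0 numbered 1 of 5 in the endothelium list, 6 of 8 in mesenchyme and pericytes, 2 of 6 in choroid plexus, 9 of 14 among the immediate early genes, 3 of 6 in the interferon response, 3 of 5 in the Hedgehog pathway, 5 of 9 in the BMP and Id list, 4 of 7 in the Wnt list and 4 of 9 among the genes of progenitor timing. They numbered 7 of 18 in actin and matrix, 8 of 22 in ribosome biogenesis and Myc, 3 of 11 in fatty acid synthesis, 12 of 20 in synapse and receptors, 6 of 14 among mitochondrially encoded genes and 22 of 30 among nuclear genes of the respiratory chain.

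Of the 184 genes tested in these 15 lists 10 were higher at 24 h without overlap (5.43%) and 7 lower (3.8%), beside 5.63% and 5.03% of all genes tested. The values of some of them follow, with limma adjusted p-values that did not pass the threshold. *Ifitm3*, an antiviral membrane protein, had 33.1, 20.0 and 17.0 at 12 h and 35.1, 93.1 and 141 at 24 h (adjusted p = 0.27). *Id3*, an inhibitor of bHLH factors, had 15.6, 15.8 and 38.5 at 12 h and 40.8, 88.1 and 48.9 at 24 h (adjusted p = 0.54). In the Hedgehog list the transcription factor *Gli3* had 199, 239.9 and 302 at 12 h and 186, 162 and 127 at 24 h (adjusted p = 0.491), while *Sufu*, which restrains Gli factors, had 119, 143 and 54.6 at 12 h and 176, 178 and 193 at 24 h (adjusted p = 0.352). *Ier3*, an immediate early gene, had 179, 116 and 107 at 12 h and 231, 234 and 246 at 24 h (adjusted p = 0.217). *Lgals1*, galectin 1, had 2281, 2829 and 2001 at 12 h and 3179, 3070 and 3407 at 24 h (adjusted p = 0.156). *Nlgn1*, a synaptic adhesion protein, had 267, 259 and 349 at 12 h and 173, 194 and 177 at 24 h (adjusted p = 0.329). *Rrp9*, a factor of ribosomal RNA processing, had 209.6, 224 and 241 at 12 h and 136, 139 and 146 at 24 h (adjusted p = 0.418). *mt-Nd5*, a mitochondrially encoded subunit of complex I, had 4906, 5361 and 4679 at 12 h and 3472, 4064 and 4522 at 24 h (adjusted p = 0.419).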
